A study of Mus musculus with 6 samples.

Results

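The acyl-CoA thioesterase (Acot) family was followed in 2 magnetically sorted fractions of neonatal mouse cerebellum. Its members were the 10 genes Acot1, Acot2, Acot3, Acot4, Acot5, Acot6, Acot7, Acot9, Acot11 and Acot13, which were taken by gene name from the array annotation and had 13 of the 55681 probes. Of these genes, 7 had 1 probe, while Acot3, Acot5 and Acot6 had 2 each. The family was chosen by the difference of Acot5 in log2 signal between the fractions, which was among the largest on the array. Its 2 probes are therefore described without a test, and the other 9 genes were tested.

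The study compared glial precursors of the cerebellum that carry the astrocyte surface antigen ACSA-2, encoded by Atp1b2, together with the glutamate transporter GLAST, encoded by Slc1a3 (A+/G+), with cells that carry GLAST alone (A-/G+). All samples came from wild-type mice, which the labels give as strain CD1 at postnatal days 1 to 3, while the study's methods name another background strain and a slightly earlier age. A+/G+ cells were captured with beads against ACSA-2, and A-/G+ cells were captured with an antibody against GLAST after several other cell types and ACSA-2 positive cells had been removed. Each of the 3 samples per fraction held 50000 cells from tissue of either sex and was hybridized to 1 array with the dye Cy3. Nothing in the labels says how many animals gave a sample, so that the p-values measure the spread between these samples.

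The arrays of the fractions differed in brightness. The 75th percentile of the intensity lay between 332 and 334.4 on the A+/G+ arrays and between 56.6 and 251 on the A-/G+ arrays, and the number of probes well above background lay between 26476 and 26653 in A+/G+ and between 18333 and 24726 in A-/G+. Slide 1 carried the 3 A+/G+ arrays and slide 2 the 3 A-/G+ arrays, hence slide and fraction cannot be told apart. All 12 astroglia markers had signal well above background on each of the 6 arrays. The Atp1b2 signal of A+/G+ exceeded that of A-/G+ by 2.16 in log2 units (adjusted p = 0.00725, limma). Slc1a3 differed by -1.19 (adjusted p = 0.0733, limma) and thus did not pass the limit of 0.05 used throughout. Every A-/G+ array lay above every A+/G+ array for Slc1a3, by at least 0.385. Such a separation with A-/G+ higher was common. It held for 32.8% of the 17950 probes well above background on all 6 arrays. Of the 12 astroglia markers, 5 passed as higher in A+/G+ (Gfap and Gja1 by 3.03 each, Atp1b2, Aldoc and S100b). Aldh1l1 passed as higher in A-/G+ (-0.64). Over the brightest probe of all 24082 gene symbols, 7.48% passed as higher in A+/G+ and 5.12% as higher in A-/G+. In bulk samples, fewer cells of a type and less RNA per cell cannot be told apart.

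Acyl-CoA thioesterases cut fatty acyl-CoA, the activated form of a fatty acid, into the free fatty acid and coenzyme A. They thereby work against the acyl-CoA synthetases and set how much acyl-CoA is open to oxidation, lipid building or signaling. The family comprises type I enzymes with an alpha/beta hydrolase fold and type II enzymes with a hotdog fold. The type I genes lie side by side on mouse chromosome 12 and arose by duplication; ACOT1 is cytosolic, ACOT2 mitochondrial, and ACOT3 to ACOT6 are peroxisomal enzymes. Among the type II enzymes, ACOT7 is the main cytosolic acyl-CoA thioesterase of neurons, ACOT9 is mitochondrial, ACOT11 (also THEM1) limits the burning of fat in brown fat, and ACOT13 (also THEM2) acts near mitochondria. Several type I genes are known targets of the fatty acid receptor PPAR-alpha in liver.

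Because the type I genes are close copies of each other, the sequences of their probes are shown first. Each probe has 60 bases, and positions are those of the array annotation on mm9. The first Acot5 probe lies on the plus strand at chr12:85416634-85416693 and is spanned by a reading frame without a stop codon. The second Acot5 probe starts 259 bases further on, at chr12:85416893-85416951, and ends in the hexamer AATAAA, the letters of a polyadenylation signal. The Acot1 probe (chr12:85358561-85358620) and the Acot3 probe that starts at 85399468 (chr12:85399468-85399527) are given for comparison, the former as the copy with signal in both fractions and the latter as a copy without signal above background. Only the last 30 bases are given for the second Acot5 probe and the Acot1 probe. Capitals mark the hexamer AATAAA.
Acot5, first probe: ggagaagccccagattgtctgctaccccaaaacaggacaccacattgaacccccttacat
Acot5, second probe, last 30 bases: atatatgcattgttttcttcttttAATAAA
Acot3, probe from 85399468: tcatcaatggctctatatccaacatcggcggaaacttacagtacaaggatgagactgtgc
Acot1, last 30 bases: tgccaggAATAAAaaggaaccatgattaaa

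No run longer than 9 bases was shared between probes of different members, searched on both strands. Over all probes of the array, the longest run shared between a member probe and a probe of another gene had 21 bases and belonged to the Acot3 probe that starts at 85400452. For the Acot5 probes, the longest such runs had 15 and 14 bases. The annotation gave a RefSeq transcript for 12 of the 13 probes, and each of these transcripts belonged to the named gene. Whether a probe can bind the RNA of a neighbouring copy was not tested, because transcript sequences were not used here.

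Acot5, a peroxisomal type I enzyme, had the largest differences of the family, with both probes higher in A+/G+. At the first probe, the normalized log2 signal was 7.91, 8.27 and 8.73 in A+/G+ replicates 1, 2 and 3 and 5.15, 5.61 and 5.88 in A-/G+ replicates 1, 2 and 3. All A+/G+ arrays thus lay above all A-/G+ arrays, and signal well above background was found on 3 A+/G+ and 2 A-/G+ arrays. The A+/G+ mean was 8.30 ± 0.41 (SD, n = 3) and the A-/G+ mean 5.54 ± 0.37 (SD, n = 3), a difference of 2.76, and the medians were 6.33-fold apart. At the second probe, the signal was 7.47, 7.69 and 8.27 in A+/G+ and 1.93, 1.93 and 3.03 in A-/G+. None of the A-/G+ arrays had this probe well above background, so their values give only a limit. Set against the lowest signal that counted as above background on each A-/G+ array, its A+/G+ signal was higher by at least 7.5-fold, from means of 7.81 ± 0.41 (SD, n = 3) and 2.29 ± 0.64 (SD, n = 3). The same contrast chose the gene, and these values support nothing further.

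Before normalization, the intensities of the A+/G+ arrays had the same order. At the first Acot5 probe they were 401, 534.6 and 725 in A+/G+ and 12.4, 28.1 and 75.02 in A-/G+. At the second probe they were 298, 351.6 and 522.7 in A+/G+ and 3.71, 3.80 and 9.29 in A-/G+. Within each fraction, replicate 3 was the brightest at both probes. Across the 6 arrays, the log2 signals of the probes rose and fell together (Pearson r = 0.99, n = 6 arrays, a description that includes the difference between the fractions). Their distance was not constant, however. The first probe exceeded the second by 0.44, 0.58 and 0.46 in A+/G+ replicates 1, 2 and 3. In A-/G+, where the second probe was not above background, it did so by 3.22, 3.68 and 2.85. The cause of this gap was not tested. After normexp background correction with an offset of 50, which compresses dim signals, the difference of the first probe was 1.86 in place of 2.76. That of the second probe was 2.23, which is less than the bound of 7.5-fold, so the bound belongs to the main processing.

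**Figure D1:**
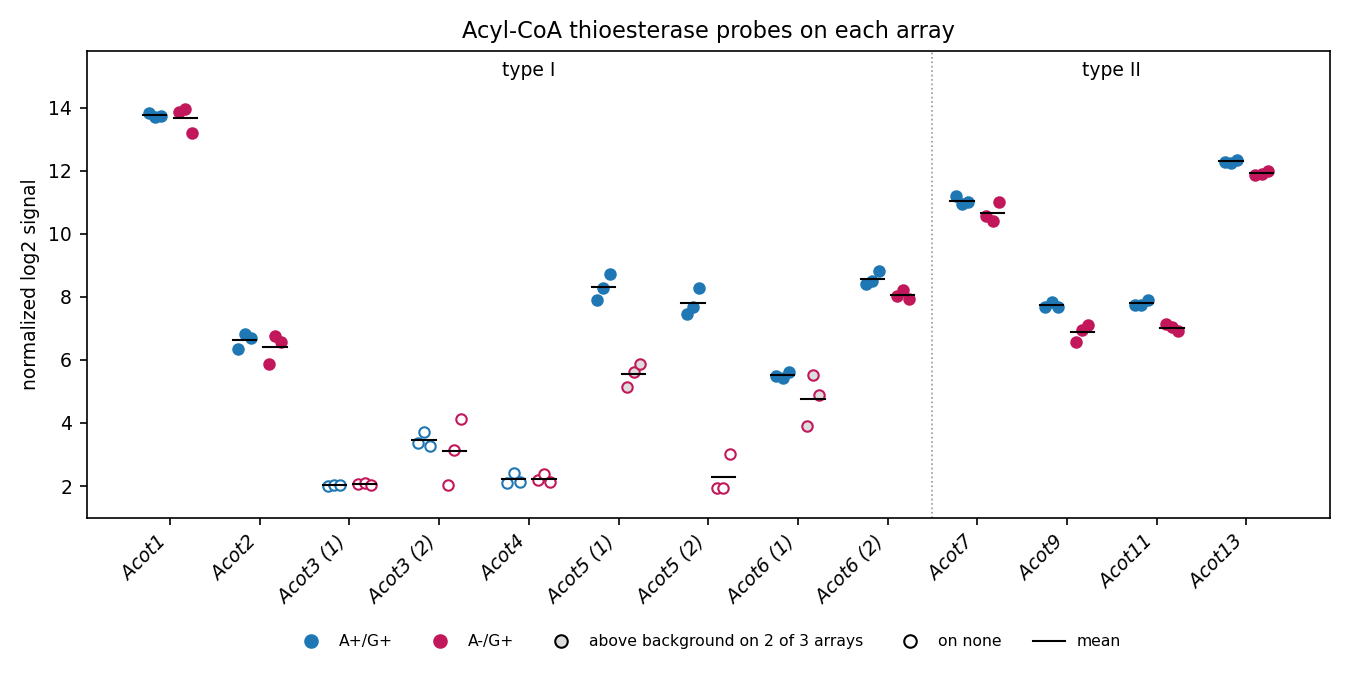
Normalized log2 signal (vertical axis) of each of the 13 Acot probes on each of the 6 arrays, with a point per array, a line at the mean of each fraction, and numbers in brackets that order the probes of a gene along its chromosome. Grey and open points mark fractions in which a probe was well above background on 2 arrays and on no array; the Acot5 points of the fractions lie far apart, while those of Acot1 and Acot2 overlap.

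The other type I genes of the cluster did not pass the test. Acot1, the cytosolic enzyme, had log2 signals of 13.83, 13.71 and 13.74 in A+/G+ and 13.86, 13.96 and 13.20 in A-/G+. The fractions overlapped, with 1 A-/G+ array below and 2 above all A+/G+ arrays. The difference was 0.09 (95% interval -0.48 to 0.65, adjusted p = 0.826, limma), and its sign turned when the arrays were aligned at the 75th percentile in place of quantile normalization (-0.14) and without A-/G+ replicate 3 (-0.15). Acot2, the mitochondrial enzyme (chr12:85334071-85334130), had signals of 6.35, 6.81 and 6.70 in A+/G+ and 5.86, 6.76 and 6.58 in A-/G+. Here too the fractions overlapped, with a difference of 0.22 (95% interval -0.51 to 0.94, adjusted p = 0.657, limma), which was -0.05 without A-/G+ replicate 1. On all 3 A-/G+ arrays the Acot1 probe gave signal well above background, whereas the second Acot5 probe did not.

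Acot3 and Acot4, peroxisomal enzymes that lie between Acot1 and Acot5, were not detected. Neither the 2 Acot3 probes (from 85399468 and from 85400452) nor the Acot4 probe (chr12:85384821-85384880) was well above background on any of the 6 arrays. No fold is given for them.

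Acot6, the last gene of the cluster, was measured by 2 probes. At chr12:85451951-85452010 the signal was 8.40, 8.51 and 8.81 in A+/G+ and 8.02, 8.20 and 7.92 in A-/G+. All A+/G+ arrays lay above all A-/G+ arrays by at least 0.20, yet the difference of 0.53 (95% interval 0.16 to 0.89) did not pass (adjusted p = 0.095, limma). The first Acot6 probe along the chromosome, from 85450667, had signals of 5.49, 5.42 and 5.62 in A+/G+ and 3.89, 5.53 and 4.89 in A-/G+ and was above background on 3 and 2 arrays. Its difference of 0.74 did not pass either (adjusted p = 0.407, limma). Both Acot6 differences were thus smaller than those of the Acot5 probes; the difference between the genes was not tested.

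Of the 4 type II genes, 3 passed as higher in A+/G+, as did 4.65% of all probes on the array. Among probes well above background on all 6 arrays, as those of these 4 genes were, 7.0% passed in that direction. Acot11, which carries a lipid-binding START domain beside its thioesterase domains, had signals of 7.73, 7.75 and 7.90 in A+/G+ and 7.13, 7.03 and 6.91 in A-/G+ (chr4:106417185-106417244, minus strand). The fractions were separated by 0.61, more than the range within either. Acot11 was 1.71-fold higher in A+/G+ (log2 difference 0.77, standard error 0.09, adjusted p = 0.0131, limma). Acot9 (chrX:151731124-151731183), a mitochondrial enzyme, had signals of 7.66, 7.83 and 7.69 in A+/G+ and 6.55, 6.95 and 7.11 in A-/G+. Its lowest A+/G+ array was above its highest A-/G+ array by 0.56. Acot9 was 1.81-fold higher in A+/G+ (log2 difference 0.86, standard error 0.16, adjusted p = 0.0416, limma).

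Acot13, a small enzyme that pairs with phosphatidylcholine transfer protein, had signals of 12.29, 12.25 and 12.35 in A+/G+ and 11.87, 11.90 and 11.97 in A-/G+ (chr13:24909838-24909897, minus strand). The arrays of a fraction lay close together and the fractions did not overlap. Acot13 was 1.30-fold higher in A+/G+ (log2 difference 0.38, standard error 0.06, adjusted p = 0.026, limma). Acot7, the thioesterase best known from neurons, had signals of 11.20, 10.95 and 11.00 in A+/G+ and 10.55, 10.40 and 11.01 in A-/G+ (chr4:151645802-151645861). A-/G+ replicate 3 lay within the A+/G+ arrays. Acot7 did not pass (log2 difference 0.40, 95% interval -0.08 to 0.87, adjusted p = 0.303, limma), although it did without A-/G+ replicate 3 (0.57, adjusted p = 0.0441, limma). Over all probes, that fit gave 4437 calls higher in A+/G+ in place of 2589.

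Thus, of the 11 probes of the 9 tested genes, 3 were higher in A+/G+ and 0 were higher in A-/G+ at an adjusted p of at most 0.05 in limma. At an unadjusted p under 0.05 the counts were 4 and 0, and with the methods' t-test after adjustment they were 2 and 0. Over all probes of the array, 4.65% passed as higher in A+/G+ and 4.64% as higher in A-/G+. Among probes well above background on all 6 arrays, the shares were 7.0% and 11.9%. None of the 3 had medians at least 4-fold apart, the additional limit of the study's methods, which 1.53% of all probes passed with A+/G+ higher. Of the 7 tested probes that were well above background on all 6 arrays, all had the higher mean in A+/G+; their median difference was 0.40 compared with -0.12 over the 17950 such probes of the array. In 4 of the 7 (Acot6, Acot9, Acot11 and Acot13), the arrays of the fractions did not overlap, with A+/G+ higher, which held for 18.7% of those 17950 probes. An exact permutation test of 3 arrays against 3 cannot give a two-sided p below 0.1.

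These calls were close to the limit. With a shift by the 75th percentile in place of quantile normalization, Acot9 and Acot11 had an adjusted p of 0.0501 each and Acot13 of 0.24 (limma). Leaving out any of the A+/G+ replicates 1, 2 and 3 ended the calls of all 3 genes. Over all probes of the array, calls higher in A+/G+ fell in the same fits from 2589 to 1021, 816 and 846. Without A-/G+ replicate 2, Acot9 and Acot13 did not pass, and without A-/G+ replicate 1, Acot13 did not. The differences themselves moved little when an array was left out, from 0.70 to 0.98 for Acot9, from 0.71 to 0.82 for Acot11 and from 0.35 to 0.41 for Acot13.

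**Figure D2:**
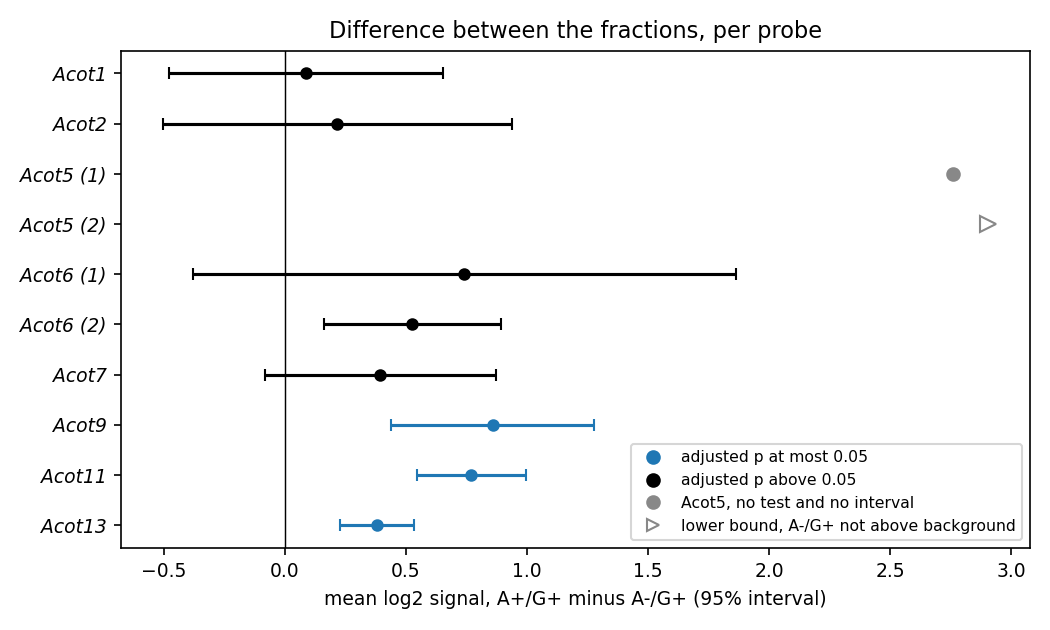
Difference of the mean log2 signal, A+/G+ minus A-/G+ (horizontal axis), for the 10 Acot probes that were above background in at least 1 fraction, with 95% intervals from limma and blue for an adjusted p of at most 0.05. Grey marks the Acot5 probes, which chose the family and have neither a test nor an interval, with an arrowhead at the lower bound of the second; Acot9, Acot11 and Acot13 lie between 0.38 and 0.86, and the intervals of Acot1, Acot2, Acot7 and the first Acot6 probe include 0.

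The genes within 500 kb of the cluster were also examined. The Acot1 to Acot6 probes span 117.9 kb. Among 33 probes of 22 other named genes, 4 probes (12.1%) passed as higher in A+/G+ and 3 (9.09%) as higher in A-/G+, compared with 4.65% and 4.64% of all probes. Of the probes well above background on all 6 arrays, 7.0% and 11.9% passed. Higher in A+/G+ were Ccdc176 (1.12), Fam161b (0.68), Ptgr2 (0.55), which encodes a prostaglandin reductase, and Entpd5 (0.46), a nucleotide-hydrolysing enzyme. Rbm25, a splicing factor, differed by -1.28, Elmsan1 by -0.58 and Abcd4, an ABC transporter for vitamin B12, by -0.45, all on the log2 scale. These values belong to the probes that passed. The other probes of Rbm25 (-0.47), Elmsan1 (-0.53 and -1.16), Ptgr2 (0.87 and 0.73) and Entpd5 (0.15) had the same sign but did not pass. The window also held 18 probes of 4 noncoding regions, of which 4 passed, all with A-/G+ higher. They lay 154 to 199 kb before Acot5 in the overlapping regions chr12:85196395-85262884 and chr12:85210777-85262127 and differed by -1.03, -1.01, -0.96 and -1.15 (adjusted p from 0.0209 to 0.0385, limma). Those at 199 kb overlap or adjoin each other on the minus strand, so that these calls are not independent. The named neighbours that passed went in both directions. Whether the region differed as a block was not tested.

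**Figure D3:**
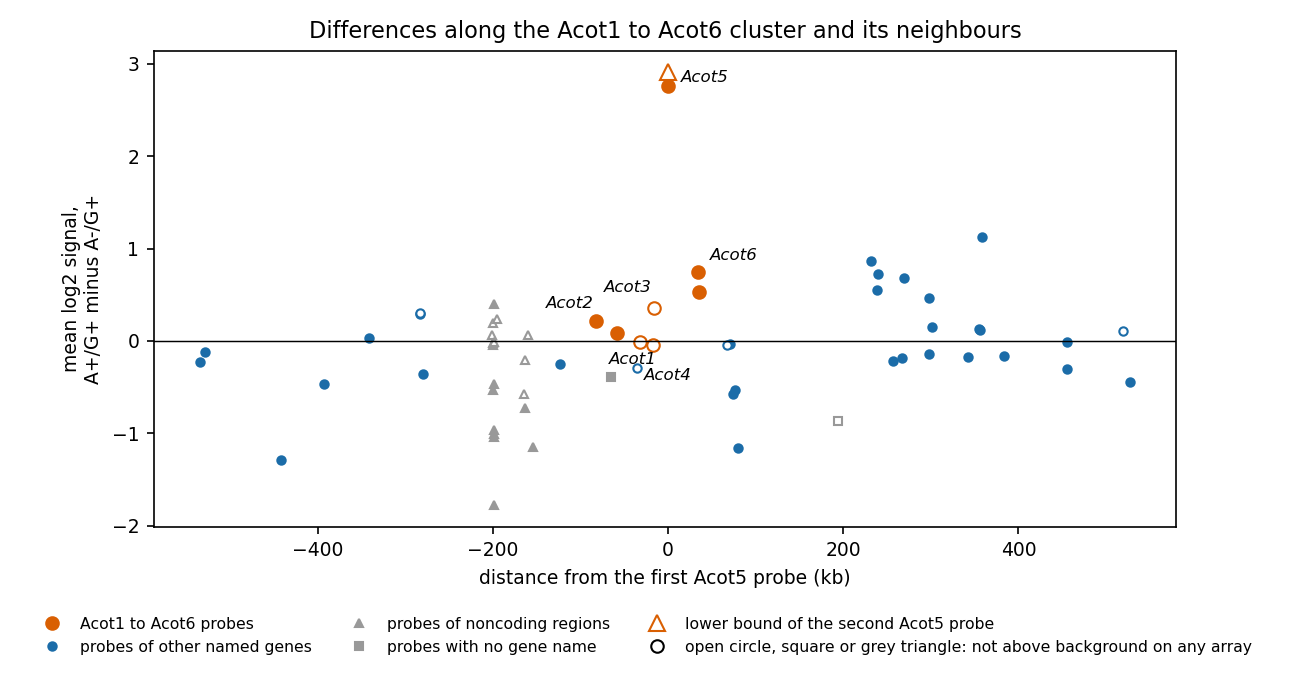
Difference of the mean log2 signal, A+/G+ minus A-/G+ (vertical axis), of each probe within 500 kb of the Acot1 to Acot6 cluster against its distance from the first Acot5 probe in kb (horizontal axis). Orange symbols are the cluster's own probes, the open orange triangle is the lower bound of the second Acot5 probe, and other open symbols were not above background on any array; the first Acot5 probe stands at 2.76, and probes on either side of the cluster lie above and below 0.

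The stretch before the Acot5 start was set beside that of Acot1, as the copies with a large and with a small difference. The sequences were taken from the RefSeq table of GRCm38.p6, a later build than that of the probe positions, which had a window of 300 bases around the start of 8 of the 10 members. Capitals mark AGGTCA on either strand, the letters of a nuclear receptor half-site. The Acot5 sequence lies at chr12:84069074-84069328 and the Acot1 sequence at chr12:84009252-84009501, both on the plus strand.
Acot5: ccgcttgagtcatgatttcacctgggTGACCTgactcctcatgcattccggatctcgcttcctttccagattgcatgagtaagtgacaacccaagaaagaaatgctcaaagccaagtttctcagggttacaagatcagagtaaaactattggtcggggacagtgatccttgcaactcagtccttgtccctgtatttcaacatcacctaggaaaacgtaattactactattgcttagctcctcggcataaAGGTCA
Acot1: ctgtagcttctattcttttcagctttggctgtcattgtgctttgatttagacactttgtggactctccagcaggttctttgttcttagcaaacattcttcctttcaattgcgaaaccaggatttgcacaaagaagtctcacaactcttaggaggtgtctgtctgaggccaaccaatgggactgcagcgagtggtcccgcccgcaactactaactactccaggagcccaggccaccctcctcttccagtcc

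The Acot5 window held the motif 2 times, from base -224 and from base -1 relative to the start, and 1.81% of all 32851 windows held it 2 or more times. The windows of Acot3 and Acot4 held it 1 time, those of Acot1, Acot2, Acot7, Acot9 and Acot11 did not, and 16.3% of all windows held it at least 1 time. The repeat AGGTCANAGGTCA, found in 0.0396% of windows, was in none of the members' windows. A match is a description of these letters, and no test of the motif was made.

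Beyond the family, 105 genes of acyl-CoA metabolism in 7 lists were examined, each by its brightest probe. Of these, 17 (16.2%) passed as higher in A+/G+ and 3 (2.86%) as higher in A-/G+, while 85 did not pass. Over the brightest probe of all 24082 gene symbols, 7.48% passed as higher in A+/G+ and 5.12% as higher in A-/G+. The median difference of the 105 genes was 0.18, compared with -0.03 over all gene symbols. The count of 17 fell to 5, 5 and 6 without A+/G+ replicates 1, 2 and 3 and to 7 with alignment at the 75th percentile. Over all probes, calls higher in A+/G+ fell from 2589 to 1021, 816 and 846 in the former fits and to 1227 with the alignment.

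None of the 7 other acyl-CoA thioesterases passed in the main limma fit or the methods' t-test (Acot8, Acot10, Acot12, Them4, Them5, Them6 and Baat). At an unadjusted p under 0.05, 1 was higher in A+/G+. In other limma fits, 1 of the 7 passed as higher in A+/G+. These were alignment at the 75th percentile, normexp, and the fits without A-/G+ replicate 1 or 3. Acot10, a mitochondrial relative of Acot9, had the largest difference of them and is named for that after its values were seen. Its signal was 6.53, 6.73 and 6.48 in A+/G+ and 2.72, 5.26 and 5.20 in A-/G+, where 1 array was above background, with a difference of 2.19 (adjusted p = 0.169, limma). Of 9 thioesterases that act on proteins or on the fatty acid synthase, 1 passed, Lypla1, a depalmitoylating enzyme (log2 difference 1.21, adjusted p = 0.0161, limma).

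The acyl-CoA synthetases and fatty acid transport proteins, which make the substrate of the Acot enzymes, had the most calls. Of 20 genes, 8 passed as higher in A+/G+ and 0 as higher in A-/G+, with a list median of 0.68. Without A+/G+ replicate 1, 2 or 3 the 8 calls were 4 each, and with alignment at the 75th percentile they were 3. Calls higher in A+/G+ over all probes fell in the same fits, as given above. Acsl3, a synthetase of long chain fatty acids on lipid droplets, had signals of 6.29, 6.20 and 6.20 in A+/G+ and 4.004, 4.48 and 4.09 in A-/G+. No A-/G+ array had it above background, which gives at least a 2.47-fold higher signal in A+/G+ (limma, adjusted p = 0.00504). Slc27a2, a very long chain synthetase, had signals of 5.44, 4.57 and 4.78 against 1.84, 1.83 and 1.82 and was likewise without signal above background in A-/G+. Given that limit, A+/G+ cells had at least 1.02-fold more signal (limma, adjusted p = 0.00612). Acss3, a mitochondrial short chain synthetase, passed too (adjusted p = 0.0044, limma), but its A+/G+ signal lay under the limit set by the A-/G+ arrays, so no fold is given. Of the other 5, Acsm5 was not above background on any array.

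The enzymes that use or carry acyl-CoA showed fewer calls. Of 21 genes of mitochondrial beta-oxidation, 3 passed as higher in A+/G+, Decr1 (0.78), Eci1 (0.54) and Acaa2 (0.52), and 1 as higher in A-/G+, Cpt1c (-0.54). Decr1 and Eci1 are auxiliary enzymes for unsaturated fatty acids, Acaa2 is a thiolase of the last step, and Cpt1c is a neuronal relative of the carnitine transferases. Among 18 peroxisomal genes, 0 passed as higher in A+/G+ and 1 as higher in A-/G+, Decr2 (-0.73), a peroxisomal reductase. The binding proteins had 1 call among 10, Fabp5 (0.72), a fatty acid carrier of radial glia.

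Of 20 PPAR receptors, partners and target genes, 4 passed as higher in A+/G+ and 1 as higher in A-/G+, but 0 passed in either direction without A+/G+ replicate 1, 2 or 3. The calls over all probes fell in those fits too. Cidea, a lipid droplet protein of brown fat, had signals of 9.87, 9.81 and 9.58 in A+/G+ and 5.63, 6.94 and 6.33 in A-/G+, a difference of 3.45 (adjusted p = 0.0107, limma). All A+/G+ arrays were far above all A-/G+ arrays. Pdk4 (1.88), a brake on glucose oxidation, and Angptl4 (1.19), an inhibitor of lipoprotein lipase, passed in the same direction. Rxrg, a partner receptor, differed by -1.35 (adjusted p = 0.049, limma). Among the genes of this list not above background on any array were Pparg, Cyp4a10 and Cyp4a14.

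**Figure D4:**
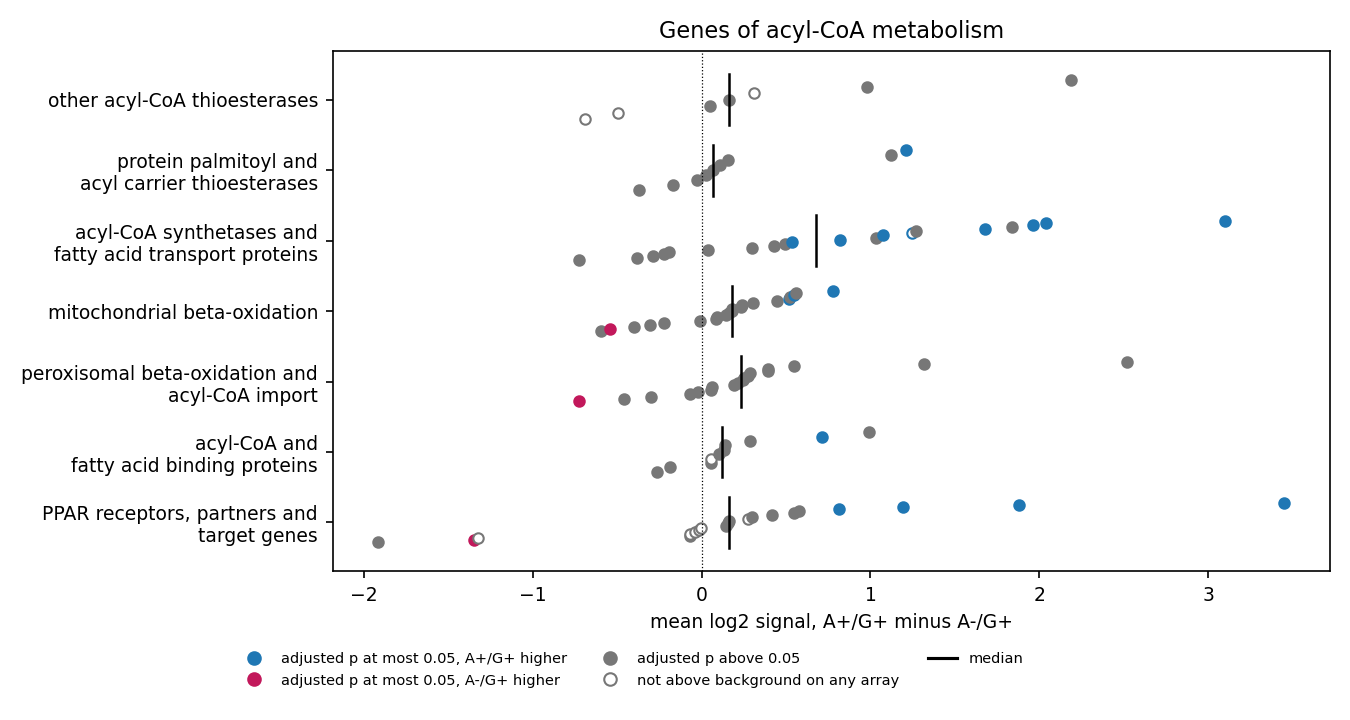
Difference of the mean log2 signal, A+/G+ minus A-/G+ (horizontal axis), of 105 genes in 7 lists of acyl-CoA metabolism, with a point per gene and a line at each list's median. Blue and red points had an adjusted p of at most 0.05 with A+/G+ or A-/G+ higher; the synthetases and transport proteins have 8 blue points, and the other thioesterases have none.

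Marker lists of other cells were read in the same fractions, each gene by its brightest probe. Over all 24082 gene symbols, 7.48% passed as higher in A+/G+ and 5.12% as higher in A-/G+. Of 12 genes of ependymal and other motile ciliated cells, 7 passed as higher in A+/G+ and 0 as higher in A-/G+, and their summed signal lay between 11460 and 17900 in A+/G+ and between 2098 and 6893 in A-/G+. Of 8 Purkinje cell genes, 5 passed as higher in A+/G+ and 1 as higher in A-/G+ (sums of 5061 to 13770 and 1753 to 2351), with Ppp1r17 not above background on any array. Of 8 oligodendrocyte genes, 3 passed as higher in A+/G+ and 1 as higher in A-/G+ (15030 to 18310 and 2996 to 6551). Meningeal fibroblast genes had 1 call of 5 (65630 to 79660 and 11710 to 35100), and endothelial genes had 1 call of 6 (7519 to 11350 and 1522 to 7806), both with A+/G+ higher and the other genes of these lists not past the test. At an unadjusted p under 0.05 in limma, 10 ciliated, 5 Purkinje, 4 oligodendrocyte, 5 meningeal and 1 endothelial genes were higher in A+/G+. In A-/G+ the counts of these lists were 0, 1, 1, 0 and 0. Of the 8 genes listed for Bergmann glia, 7 passed as higher in A-/G+ and 1, Slc1a6 (1.95), as higher in A+/G+ (4347 to 5395 and 16000 to 24760). Of 8 genes of the granule neuron lineage, 2 (Zic2 and Pax6) passed as higher in A-/G+ and 0 as higher in A+/G+ (24910 to 29200 and 36430 to 38460). This list was mixed, with the higher mean in A+/G+ for 4 of the 8 genes and a median difference of 0.12. The 26 general neuron, microglia, red blood cell and choroid plexus genes had 0 calls in limma and in the methods' t-test, while at an unadjusted p under 0.05 A+/G+ was higher for 7 and A-/G+ for 0. The part of these cells in the Acot differences was not tested.

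The genes most like Acot5 across the 6 arrays were named by Pearson correlation with its first probe, over 20134 probes of other genes that were above background on at least 3 arrays. They were Hexa (r = 0.998), a lysosomal hexosaminidase, Lrrc18 (0.998), Ptx4 (0.998), 1700026D08Rik (0.998) and Nudt4 (0.997), a diphosphoinositol polyphosphate phosphatase. The correlation includes the difference between the fractions, and 11.9% of the probes compared had an r of at least 0.9. Hexa differed by 0.53 and Nudt4 by 0.85, less than Acot5, while Ptx4 and 1700026D08Rik were at least 4.59-fold and 9.05-fold higher in A+/G+ and lacked signal above background in A-/G+. These are descriptions over 6 arrays that share 2 fractions.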

How the data were processed

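RNA of both fractions was profiled with 1 dye. For each array the authors deposited the intensity of every spot after background correction by Feature Extraction 10.7.3.1. Their own quantile normalized log2 table, also deposited, served as an alternative. Here intensities were taken to the log2 scale, spots for controls and outliers were dropped, arrays were quantile normalized as in the study's methods, and spots of a probe were averaged. Differences were fitted with limma 3.58.1 (R 4.3.3) to the full set of 55681 probes, with Benjamini-Hochberg adjustment. On simulated data this made slightly more false calls than the nominal share. The simulated noise was independent between probes and held no slide effect, so it cannot give the share of false calls on these arrays. No filter on dim probes was applied. Where all arrays of a fraction lacked a probe above background, the fold is a lower bound: each dim array was given the lowest signal that counted as above background there, or the probe's own if higher, and the mean of these was set against that of the brighter fraction.

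Gene names and positions are those of the array annotation on mm9; the RefSeq table (GRCm38.p6) held 22368 of the 24082 gene symbols. The members and lists were chosen with earlier results of these data known. Named are all members, per list up to 3 genes that passed with the largest difference in each direction, all neighbours within 500 kb that passed (noncoding probes by their region), and the 5 genes most like Acot5. Tried as alternatives were the authors' table, normexp, alignment at the 75th percentile, dim probes removed, outlier spots kept, limma's trend and robust options, the methods' t-test, the 4-fold limit, a mean over a gene's probes, a replicate block, and leaving out single arrays. The number of arrays limits the precision.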

Additional observations from a re-analysis of the deposited data

How the results depend on the processing

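The count of 3 tested Acot probes higher in A+/G+ was 0 with a shift by the 75th percentile, 0 with the 4-fold limit, and between 0 and 4 when each array was left out, while 0 were higher in A-/G+ under every alternative run. The 17 genes of acyl-CoA metabolism higher in A+/G+ were 7 with the shift, 5 with the 4-fold limit, and between 5 and 21 when each array was left out. The 3 higher in A-/G+ were 1 with the methods' t-test, 0 with the 4-fold limit, and between 0 and 6 when each array was left out. Among the fits without 1 array, those without an A+/G+ replicate gave 0 Acot probes and 5 or 6 genes of acyl-CoA metabolism higher in A+/G+, and 4 calls in place of 8 among synthetases and transport proteins. The same fits gave 1021, 816 and 846 calls higher in A+/G+ over all probes in place of 2589. Without A-/G+ replicate 3 there were 4437. The deviations of arrays with the same replicate number from the means of their fractions correlated with r = 0.20, 0.11 and -0.11 over 17944 probes. Only the arrays numbered 1 correlated best with their own number. These values cannot decide whether samples with the same number were prepared together, because the A-/G+ arrays also differed in brightness among themselves. No pairing was used in the main fit. With the replicate number as a block, 0 Acot probes, 0 genes of acyl-CoA metabolism and 0 of all probes passed in either direction, and Acot9, Acot11 and Acot13 had an adjusted p of 0.111, 0.0993 and 0.104 (limma). The sign of Acot1 turned with the shift (-0.14) and without A-/G+ replicate 3 (-0.146), and that of Acot2 without A-/G+ replicate 1 (-0.053); with each array left out, Acot1 lay between -0.146 and 0.231 and Acot2 between -0.053 and 0.398. Acot9 did not pass with the methods' t-test, and Acot6 passed with normexp (adjusted p = 0.0443, limma). The shift moved the median difference of all probes from -0.04 to -1.02 and that of probes above background on all 6 arrays from -0.12 to -0.16, and gave 1227 calls for A+/G+ and 2658 for A-/G+, compared with 2589 and 2583. The cause of these changes was not tested. A slide block was not run, because each slide held 1 fraction. Dim A-/G+ arrays limit what can be said of probes near background, such as Acot2, Acot3, Acot4 and the first Acot6 probe.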
